A study of Homo sapiens with 9 samples.

Results

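The genes described here encode small MAF proteins and the factors, regulator and target enzymes of the NRF pathway. The list names 10 genes: the small MAF genes MAFF, MAFG and MAFK, the NRF genes NFE2L1, NFE2L2 and NFE2L3, the regulator KEAP1, and the target genes HMOX1, NQO1 and GCLM. Their members are all probe sets that the platform annotation assigns to exactly 1 gene of the list, which gave 20 of the 54613 probe sets that are not controls. They cover 9 of the 10 listed genes, out of 19775 genes on the array, and MAFK was not analysed here. MAFF was chosen by its measured rise after doxorubicin on these arrays, so its probe sets are described below without a test, in every comparison, and are left out of every count of called members. The other 8 genes have 18 probe sets, which were tested together with all other probe sets.

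RNA came from the established human embryonic stem cell line WA09, a single line, under 3 conditions with 3 arrays each. Pluripotent cells were untreated, the damage arrays hold cells exposed to DOX (doxorubicin, a topoisomerase II poison) for 5 h, and the differentiating arrays hold cells given 1 µM retinoic acid (RA) for 2 days. Per the labels' protocols, RA was given in medium without added FGF, so these arrays differ from the pluripotent ones in that factor too. The labels describe cultures on mouse feeder cells and feeder-free cultures without saying which gave each array, name no dose of DOX, and do not state if replicates were grown separately. The p-values below therefore reflect array-to-array spread, part of which may be technical.

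Small MAF proteins are short basic leucine zipper factors that have a DNA-binding domain but no activation domain. They pair with larger cap'n'collar factors, among them NRF1, NRF2 and NRF3 (genes NFE2L1, NFE2L2 and NFE2L3), and these dimers bind antioxidant response elements in the genes of detoxifying and antioxidant enzymes, whereas small MAF dimers without such a partner repress transcription. KEAP1 is an adaptor of a CUL3 ubiquitin ligase that marks NRF2 for degradation until oxidants or electrophiles modify it, so much of the control of NRF2 is at the level of protein, which arrays do not measure.

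Promoter sequence was taken from RefSeq (GRCh38.p14), which matched 8 of the 10 genes with 12 windows of 250 bases before an annotated start. HMOX1 and MAFK had no window. Sequence outside these windows was not searched, so a gene without a match may hold one elsewhere. The window before the upstream start of MAFF is shown because MAFF is the member with the largest change. Capitals mark 2 matches. The first is to TGACNNNGC, the letters searched as the core of the antioxidant response element, to which NRF and small MAF dimers bind. This match begins 122 bases before the start on the opposite strand. It lacks the further A of a longer pattern searched first, which was shortened after that search was seen. The second is the cyclic AMP response element TGACGTCA, a palindrome bound by ATF and CREB factors, which begins 54 bases before the start. On chr22:38201744-38201993, plus strand, 5′ to 3′, it reads
MAFF: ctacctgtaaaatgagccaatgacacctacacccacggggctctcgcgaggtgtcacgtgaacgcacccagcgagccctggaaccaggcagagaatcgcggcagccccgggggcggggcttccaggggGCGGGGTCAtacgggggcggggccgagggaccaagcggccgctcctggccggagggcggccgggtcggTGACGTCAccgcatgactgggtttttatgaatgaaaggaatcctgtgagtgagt

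The antioxidant response element core was found on either strand in 3 of the 12 windows, those of MAFF, GCLM and KEAP1. The GCLM and KEAP1 stretches are shown because they hold the same 9 bases. Capitals mark the match, which begins 34 bases before the start of GCLM and 31 bases before the downstream start of KEAP1. The same KEAP1 window holds a further match 54 bases before the start. The stretches lie on the minus strand of GRCh38.p14 at chr1:93909446-93909474 and chr19:10502784-10502812 and read, 5′ to 3′,
GCLM: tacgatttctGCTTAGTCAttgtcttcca
KEAP1: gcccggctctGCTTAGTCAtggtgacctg

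Of 35116 such windows of all genes, 10.9% held TGACNNNGC and 1.65% held TGACGTCA. The AP-1 element TGANTCA, also searched on both strands, was in 6.57% of all windows and in 0 of the 12. These patterns can share bases. A match is a description of these letters, not a measured binding site.

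All levels below are the deposited log2 intensities, compared only between conditions for the same probe set, since probe sets differ in their response. The leading probe set of a gene is the brightest, by its mean on the 9 arrays. Changes are log2 differences, given with limma's standard error (SE). P-values come from limma and were adjusted by Benjamini and Hochberg's method across the 54613 probe sets, and a probe set was called at an adjusted p under 0.05. Counts at an unadjusted p under 0.05 are description only, since the share of all probe sets at that threshold is not given. With 3 arrays per condition, precision is limited throughout. In RNA of a whole culture, a change in the share of some cells and a change of RNA per cell cannot be told apart.

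Genes known to respond to each treatment were looked at first. The p53 targets CDKN1A and MDM2 lay 3.71 and 2.02 higher on the DOX arrays than on the pluripotent ones, and 0.92 and 0.42 higher on the RA arrays, while the RA-responsive genes CYP26A1 and RARB lay 1.64 and 2.21 higher on the RA arrays. Arrays of a condition correlated at 0.994 to 0.997 over probe sets, and the third pluripotent array stood apart from the other pluripotent arrays, with a limma array weight of 0.578 against 1.44 and 1.47. Defining markers of pluripotent cells were high throughout, with a mean level over 10 genes of 12.05 to 12.15 on pluripotent, 11.90 to 12.00 on DOX and 12.09 to 12.21 on RA arrays, where the median probe set was at 4.66. Markers of macrophages and blood were below that median in all 3 measured cases. Of 12 pluripotent markers listed 10 were measured. SOX2 was called lower after DOX (−0.46, limma adjusted p = 0.0055) and 0 were called after RA. With RA set against DOX, 5 of the 10 were called higher and 0 lower, where 10.7% and 7.26% of all genes were. At an unadjusted p under 0.05 in limma, 4 pluripotent markers were higher and 2 lower after RA. Markers of fibroblasts and stromal cells had a mean level over 10 genes of 6.64 to 6.74 on pluripotent, 6.91 to 6.95 on DOX and 6.62 to 6.69 on RA arrays, and 2 of the 10 were called higher after DOX (COL1A1 and VIM) and 2 higher and 1 lower after RA, while LUM, POSTN, FAP and DCN were below the median probe set in pluripotent cells. Of 9 trophoblast and amnion markers 3 were called higher after DOX, GATA3 (1.34), IGFBP3 (1.11) and KRT18 (0.42). After RA 2 were higher, GATA3 (3.20) and IGFBP3 (0.40). CDX2, KRT7, CGA, ERVW-1, HAND1 and VTCN1 were not called after either treatment. The mean level over the 9 was 5.31 to 5.32 on pluripotent, 5.60 to 5.74 on DOX and 5.72 to 5.88 on RA arrays. Across all genes 4.67% were called higher and 7.4% lower after DOX, and 2.42% and 2.43% after RA. Of 5 neural markers, NES was called higher after DOX (0.94) and lower after RA (−0.76), and their mean level was 7.04 to 7.22 on pluripotent, 7.22 to 7.36 on DOX and 6.83 to 6.89 on RA arrays; at an unadjusted p under 0.05 in limma, 4 of the 5 were lower after RA. Of 5 endoderm markers, AFP was called higher after DOX (0.59) and none after RA by limma, also at an unadjusted p under 0.05, and their mean level was 4.52 to 4.62 on pluripotent, 4.67 to 4.80 on DOX and 4.50 to 4.61 on RA arrays. The part of these other markers in the results below was not tested. The difference between 3′ and 5′ control probe sets of ACTB, a check of RNA integrity, was 0.63 to 1.09 on pluripotent, 0.67 to 0.81 on DOX and 0.83 to 1.54 on RA arrays.

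MAFF was lower in pluripotent and RA-treated cells than in DOX-treated cells. Its leading probe set (36711_at) read 5.90, 5.96 and 5.18 on the pluripotent arrays, 9.79, 9.78 and 9.58 on the DOX arrays and 5.81, 5.70 and 5.40 on the RA arrays. The DOX arrays lay far above the other 6, which overlapped. The mean rose from 5.68 ± 0.43 to 9.72 ± 0.12 (SD, n = 3 arrays each), a log2 difference of 4.04 or 16.4-fold, and was 5.64 ± 0.21 with RA. This is the change that put MAFF on the list. The third pluripotent array gave the lowest of the 9 values, and without it the difference was 3.79.

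The other MAFF probe set, 205193_at, gave a smaller difference in the same direction. It read 5.70, 5.57 and 5.41 on the pluripotent arrays, 7.59, 7.34 and 7.48 on the DOX arrays and 5.68, 5.57 and 5.42 on the RA arrays. Again the DOX arrays stood clear of the other 6. The log2 difference was 1.90, or 3.74-fold, so the size of the MAFF response on these arrays depends on the probe set by over 2 log2 units, while the order of the conditions does not. With the mean of both probe sets the difference was 2.97. No measure of background was used, so neither probe set's pluripotent level is shown to be above background.

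**Figure D1:**
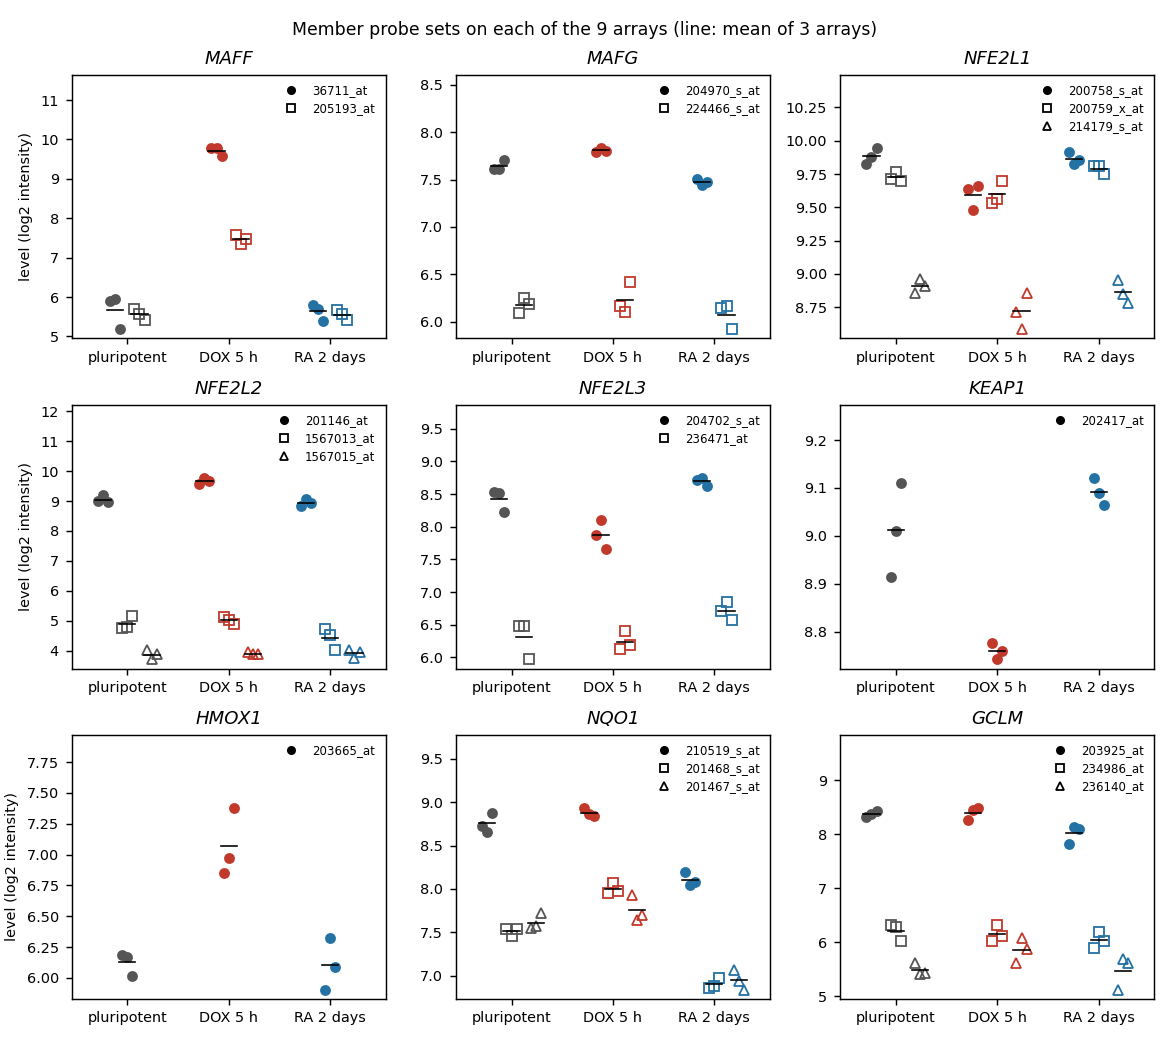
Level of each member probe set in log2 intensity (vertical axis, scaled separately for each gene) on the 3 pluripotent, 3 DOX and 3 RA arrays, with a short line at the mean of 3 arrays; filled symbols are the leading probe set and open symbols the others. The DOX arrays of MAFF lie between 9.58 and 9.79 on the leading probe set, above all other arrays, and the RA arrays of NQO1 lie below the pluripotent ones on all 3 probe sets.

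MAFG, which encodes another small MAF protein, changed little beside MAFF. Its leading probe set (204970_s_at) read 7.61, 7.61 and 7.71 on the pluripotent arrays, 7.79, 7.84 and 7.80 on the DOX arrays and 7.50, 7.45 and 7.48 on the RA arrays. The 3 conditions did not overlap, with DOX highest and RA lowest. Neither treatment passed the test against pluripotent cells, at 0.16 ± 0.07 SE for DOX (adjusted p = 0.20 in limma, 95% interval 0.02 to 0.31) and −0.17 ± 0.07 for RA (adjusted p = 0.30, interval −0.32 to −0.02). The ends of that order did differ, with RA 0.34 lower than DOX (SE 0.07, limma adjusted p = 0.0070). The other MAFG probe set (224466_s_at) was called in none of the 3 comparisons, with values of 0.05 for DOX, −0.10 for RA and −0.16 for RA against DOX, and limma adjusted p-values of 0.84, 0.79 and 0.41.

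Over the 18 tested member probe sets, DOX raised 3 and lowered 2. Across all probe sets 7.71% were called after DOX, 3.2% higher and 4.52% lower. The calls fell on 5 genes, with NFE2L2, HMOX1 and NQO1 higher and NFE2L1 and NFE2L3 lower. The median log2 change of the 18 was 0.04 beside 0.01 over all probe sets tested. In 4 of the 18 the DOX arrays all lay above the pluripotent ones and in 4 they all lay below, where 9.69% and 11.7% of all probe sets did so.

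NFE2L2, the gene of NRF2, rose after DOX. Its leading probe set (201146_at) read 8.98, 9.19 and 8.97 on the pluripotent arrays, 9.56, 9.78 and 9.67 on the DOX arrays and 8.83, 9.07 and 8.94 on the RA arrays. Every DOX array was above every other array, and RA and pluripotent arrays overlapped. The rise was 1.53-fold (0.62 ± 0.10, limma adjusted p = 0.0026) and stayed between 0.56 and 0.69 when any 1 of the 6 compared arrays was left out. RA differed from pluripotent cells by −0.10 ± 0.10 (limma adjusted p = 0.78) and from DOX by −0.72 ± 0.10 (adjusted p = 5.8e-04).

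The other NFE2L2 probe sets lay close to or below the median probe set. The first, 1567013_at, changed by 0.13 after DOX (limma adjusted p = 0.76) and was at −0.48 after RA (adjusted p = 0.23), and it was 0.60 lower with RA than with DOX (adjusted p = 0.041). That last call was lost without any of the DOX arrays and without the second or the third RA array (adjusted p up to 0.12). It was also lost with the replicate number as a block (limma adjusted p = 0.051). The other, 1567015_at, was at 0.03 after DOX and 0.04 after RA. The mean of the 3 probe sets gave 0.26 for DOX (limma adjusted p = 0.030 per gene), so the size of the NFE2L2 rise rests on the leading probe set.

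The genes of the related factors NRF1 and NRF3 were lower after DOX, less securely. NRF1 (gene NFE2L1) is anchored in the endoplasmic reticulum and drives proteasome genes when proteasomes are impaired. The leading NFE2L1 probe set (200758_s_at) read 9.83, 9.88 and 9.95 on the pluripotent arrays, 9.64, 9.48 and 9.66 on the DOX arrays and 9.92, 9.82 and 9.86 on the RA arrays. The DOX arrays were below all others. The fall was small (−0.29 ± 0.08, limma adjusted p = 0.043), and the call was lost without any 1 of the 6 compared arrays (adjusted p from 0.058 to 0.13, values from −0.32 to −0.23) and with the replicate number as a block (adjusted p = 0.054). The remaining NFE2L1 probe sets were at −0.13 and −0.19 (limma adjusted p = 0.39 and 0.26). RA left NFE2L1 at −0.02 to pluripotent cells (95% interval −0.19 to 0.15 in limma).

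NFE2L3 encodes NRF3, a less studied factor of the family. Its leading probe set (204702_s_at) read 8.53, 8.51 and 8.22 on the pluripotent arrays, 7.87, 8.10 and 7.67 on the DOX arrays and 8.71, 8.75 and 8.62 on the RA arrays. The conditions did not overlap, with RA highest and DOX lowest. The fall after DOX was 1.45-fold (−0.54 ± 0.12, limma adjusted p = 0.018). It was no longer called without the first or second pluripotent array or the first or the third DOX array (adjusted p from 0.053 to 0.085), and was largest, at −0.65, when the second DOX array was left out. The other probe set (236471_at) was at −0.07 after DOX (limma adjusted p = 0.85). With RA the probe sets were at 0.27 and 0.40 (adjusted p = 0.37 and 0.23), with all RA arrays above all pluripotent arrays on both. RA against DOX gave 0.81 ± 0.12 on the leading probe set (limma adjusted p = 0.0011), a call that held without any 1 of the 6 arrays. These arrays differ in time, 2 days against 5 h, as well as in treatment.

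KEAP1, the adaptor that limits NRF2, was lowest on the DOX arrays. Its only probe set (202417_at) read 8.91, 9.01 and 9.11 on the pluripotent arrays, 8.78, 8.74 and 8.76 on the DOX arrays and 9.12, 9.09 and 9.06 on the RA arrays. The DOX arrays lay below all others, and RA and pluripotent arrays overlapped. The DOX value was −0.25 ± 0.07 and missed the threshold (limma adjusted p = 0.064), while it passed when p-values were adjusted over 1 probe set per gene (adjusted p = 0.031) and in 6 of 16 alternatives in all. RA was at 0.08 to pluripotent cells (adjusted p = 0.77) and 0.33 ± 0.07 above DOX (adjusted p = 0.012).

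**Figure D2:**
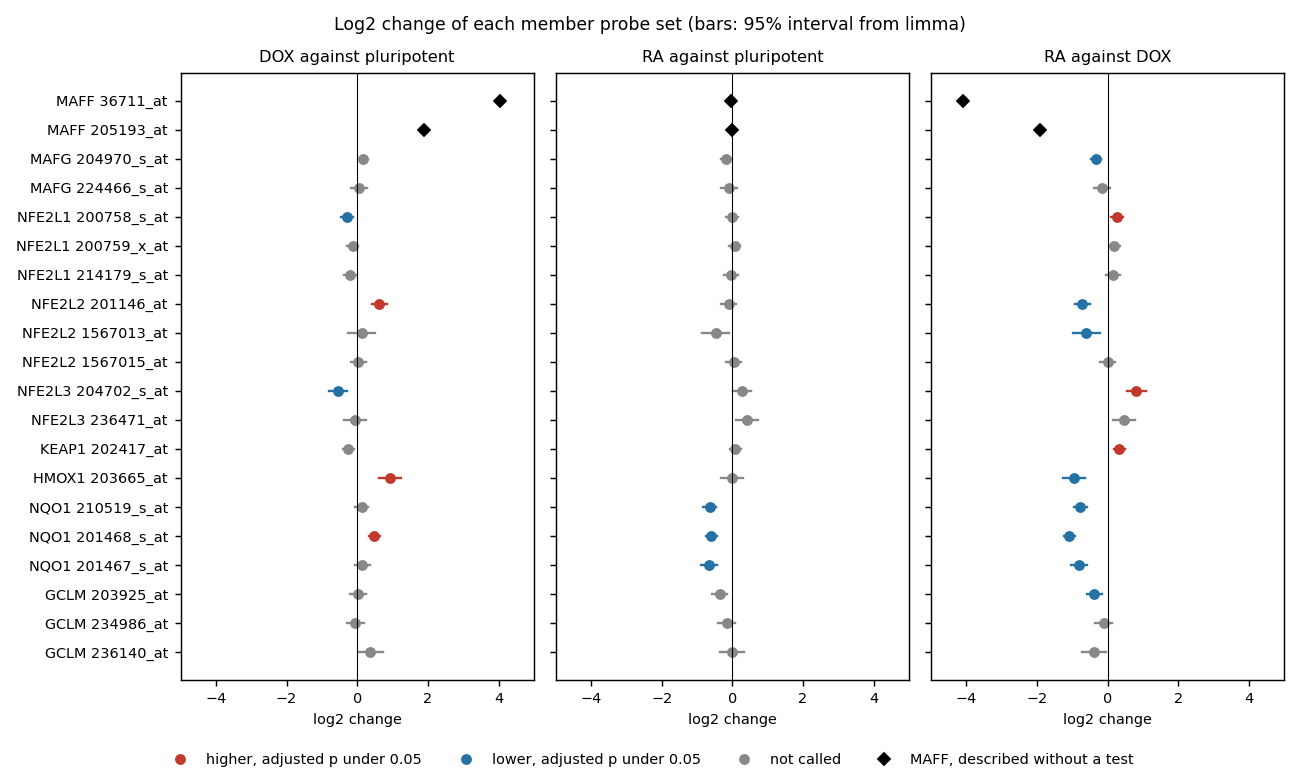
Log2 change of each member probe set (horizontal axis, the same in the 3 panels) for each treatment against pluripotent cells and for RA set against DOX, with unadjusted 95% intervals from limma. Red and blue mark called probe sets, grey those not called, and black diamonds MAFF, which was not tested. The MAFF probe sets stand at 4.04 and 1.90 after DOX and near 0 after RA, and no tested member probe set passed 1 on the log2 scale in the DOX or RA panel.

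Among the target genes, HMOX1 gave the largest tested change after DOX. HMOX1 encodes heme oxygenase 1, which breaks down heme to biliverdin, iron and carbon monoxide. Its probe set (203665_at) read 6.19, 6.17 and 6.02 on the pluripotent arrays, 6.85, 6.97 and 7.38 on the DOX arrays and 5.90, 6.32 and 6.09 on the RA arrays. All DOX arrays were above all others, the third DOX array most so, and RA and pluripotent arrays overlapped. The rise was 1.92-fold (0.94 ± 0.14, limma adjusted p = 0.0022) and was between 0.78 and 1.05 when any 1 of the 6 arrays was left out, with adjusted p no higher than 0.0095. RA was at −0.02 to pluripotent cells (95% interval −0.33 to 0.29) and 0.96 below DOX (SE 0.14, limma adjusted p = 0.0011).

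NQO1, the quinone reductase that is a standard readout of NRF2, fell after RA on all of its probe sets. The leading probe set (210519_s_at) read 8.73, 8.66 and 8.88 on the pluripotent arrays, 8.93, 8.87 and 8.84 on the DOX arrays and 8.20, 8.04 and 8.08 on the RA arrays. The RA arrays were below all others. The fall was 1.57-fold (−0.65 ± 0.08, limma adjusted p = 0.0011), and the probe sets 201468_s_at and 201467_s_at gave −0.61 ± 0.07 (adjusted p = 6.8e-04) and −0.66 ± 0.10 (adjusted p = 0.0035). Each of the 3 calls held when any 1 of the 6 compared arrays was left out, with adjusted p no higher than 0.019. They were the only members called after RA, 3 lower and 0 higher of 18, where 2.95% of all probe sets were called, 1.48% lower and 1.47% higher, and the 3 share 1 gene. At an unadjusted p under 0.05 in limma, 2 were higher and 6 lower, with no share of all probe sets at that threshold to set beside them. The RA arrays lay all above the pluripotent ones in 2 of the 18 and all below in 6, against 7.88% and 8.81% of all probe sets. The median change of the 18 after RA was −0.07 beside 0.003 over all probe sets tested.

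After DOX the NQO1 probe sets did not give the same call. The probe set 201468_s_at read 7.53, 7.46 and 7.54 on the pluripotent arrays, 7.95, 8.06 and 7.98 on the DOX arrays and 6.86, 6.88 and 6.97 on the RA arrays, with no overlap between conditions. Its rise after DOX was 1.40-fold (0.49 ± 0.07, limma adjusted p = 0.0018) and held without any 1 of the 6 arrays. The leading probe set was at 0.13 ± 0.08 (adjusted p = 0.46) and 201467_s_at at 0.15 ± 0.10 (adjusted p = 0.48), and on both the DOX and pluripotent arrays overlapped. The mean of the 3 was at 0.25, and was called when tested per gene (limma adjusted p = 0.021). Between the treatments all 3 agreed, with RA below DOX by 0.77, 1.09 and 0.81 (limma adjusted p = 1.0e-04, 2.9e-06 and 3.0e-04).

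GCLM encodes the modifier subunit of glutamate-cysteine ligase, which makes the first step of glutathione synthesis. Its leading probe set (203925_at) read 8.32, 8.37 and 8.43 on the pluripotent arrays, 8.26, 8.45 and 8.49 on the DOX arrays and 7.82, 8.13 and 8.09 on the RA arrays. The RA arrays were below all others, and DOX and pluripotent arrays overlapped. DOX changed it by 0.02 ± 0.10 (95% interval −0.19 to 0.24, limma adjusted p = 0.94). The RA value of −0.36 ± 0.10 did not pass (adjusted p = 0.099), and RA was 0.38 ± 0.10 below DOX (adjusted p = 0.028), a call lost without the second or the third DOX array or the first RA array (adjusted p from 0.091 to 0.098). Its other probe sets, 234986_at and 236140_at, were called in none of the comparisons, with values of −0.05 and 0.37 after DOX and −0.17 and −0.01 after RA (limma adjusted p from 0.22 to 0.99). GCLM and KEAP1, whose windows hold the same 9-base match shown above, had leading values after DOX of 0.02 and −0.25. MAFF, whose window holds another match to that core, was at 4.04. Any link between these matches and the changes was not tested.

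Set directly against each other, RA and DOX differed in 11 of the 18 tested member probe sets, 3 higher and 8 lower with RA. Across all probe sets 12.2% were called in that comparison, 7.11% higher and 5.13% lower. The RA arrays lay all above the DOX arrays in 5 of the 18 and all below in 8, against 14% and 12.4% of all probe sets. Those higher with RA were the leading probe sets of NFE2L1, NFE2L3 and KEAP1. Those lower were the leading probe sets of MAFG, NFE2L2, GCLM and HMOX1, a further probe set of NFE2L2, and all 3 of NQO1. The NFE2L1 call (0.27, limma adjusted p = 0.042) was lost without any 1 of the 6 arrays and with the replicate number as a block (adjusted p = 0.052). The median of the 18 was −0.25 beside −0.01 over all probe sets tested. RA and DOX arrays also differ in time, 2 days against 5 h, and RA was given in medium without added FGF. Treatment, time and medium cannot be told apart in this comparison. The differences themselves are between RA and DOX arrays, but the estimate of spread is shared with the pluripotent arrays. With only the RA and DOX arrays in the fit, 3 members were higher and 6 lower, and NFE2L1 and GCLM were not called (limma adjusted p = 0.069 and 0.058).

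The rest of the pathway was followed with 11 lists that hold 117 genes, of which 106 had a probe set, taken as 1 leading probe set per gene. After DOX 7 of the 106 were called higher and 4 lower, where 4.67% of all genes were called higher and 7.4% lower. After RA 6 were higher and 5 lower, with 2.42% and 2.43% of all genes. The median change of the 106 was −0.02 in each comparison and that of all genes −0.005 and −0.004. Without the third pluripotent array, 9 were higher and 5 lower after DOX, and 3 higher and 2 lower after RA. The DOX calls of NFE2 and GCLC were then lost (limma adjusted p = 0.056 and 0.060), and those of SLC3A2, HMOX2, TXNIP, ABCC1 and TFRC gained. After RA the calls of MAF, TXNIP, SESN1, NQO2 and ME1 held, and those of NFE2, SLC7A11, CBR1, RXRA, TXN and PIR were lost, with limma adjusted p from 0.052 for TXN to 0.11 for RXRA.

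Of 8 measured thioredoxin, peroxiredoxin and sestrin genes, 4 were called higher after DOX, where 4.67% of all genes were. They were 4 of the 7 list genes that rose. By limma 0 of this list fell, also at an unadjusted p under 0.05. The lists were chosen with earlier results of these data known, so this count is description only. SRXN1, which encodes sulfiredoxin and restores overoxidised peroxiredoxins, read 8.03, 7.96 and 8.01 on the pluripotent arrays and 8.78, 8.76 and 8.60 on the DOX arrays. It rose by 0.71 ± 0.08 (limma adjusted p = 2.4e-04), and TXNRD1, the thioredoxin reductase gene, by 0.36 ± 0.07 (adjusted p = 0.011). The sestrin genes SESN1 and SESN2 rose by 1.97 ± 0.11 and 0.93 ± 0.09 (limma adjusted p = 1.1e-06 and 1.2e-04); they are also known targets of p53. The 4 were called without the third pluripotent array too, where 1 gene of the list was called lower. TXN, thioredoxin itself, was at −0.14 after DOX (adjusted p = 0.29) and fell by 0.35 after RA (adjusted p = 0.019; 0.052 without the third pluripotent array). After RA this list had 2 higher genes, TXNIP (0.80, limma adjusted p = 0.026), whose product inhibits thioredoxin, and SESN1 (0.64, adjusted p = 0.0074). The median of the list was 0.17 after DOX and 0.02 after RA.

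Of the 7 genes for the KEAP1 ligase and proteins that bind KEAP1, 1 rose after DOX. That was SQSTM1, the autophagy receptor p62, which binds KEAP1 in competition with NRF2. It read 7.91, 7.91 and 7.90 on the pluripotent arrays, 8.71, 8.87 and 8.79 on the DOX arrays and 8.07, 8.02 and 7.86 on the RA arrays, with the DOX arrays clear of all others. The rise was 0.89 ± 0.08 (limma adjusted p = 5.9e-05). The ligase scaffold CUL3 was at −0.22 (adjusted p = 0.089), and 0 of the 7 were called after RA in limma, with 1 lower at an unadjusted p under 0.05. Of 5 genes that process NRF1, 0 were called in the 3 comparisons by limma, where 1 was lower after RA at an unadjusted p under 0.05. Of 9 genes of NRF2 turnover and its co-factors RXRA alone was called, lower after RA (−0.42, adjusted p = 0.043).

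Of 2 large MAF genes measured, MAF rose with RA. MAF, a large MAF factor that unlike small MAF proteins carries an activation domain, read 6.00, 5.85 and 5.45 on the pluripotent arrays, 6.00, 5.81 and 5.58 on the DOX arrays and 7.01, 7.12 and 7.13 on the RA arrays. RA arrays lay above all others. It rose by 1.32 ± 0.14 after RA (limma adjusted p = 3.7e-04) and was at 0.03 after DOX (adjusted p = 0.95). The cap'n'collar gene NFE2 was called lower after DOX (−0.34, adjusted p = 0.043) and higher after RA (0.42, adjusted p = 0.033), but its levels of 3.43 to 4.41 lay below the median probe set. The repressor genes BACH1 and BACH2, whose products compete with NRF factors for small MAF partners, were not called after either treatment, at 0.10 and 0.17 after DOX (limma adjusted p = 0.68 and 0.31) and 0.005 and 0.06 after RA.

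Glutathione genes were mostly not called. Of 13 measured, GCLC, the catalytic subunit that pairs with GCLM, was lower after DOX (−0.27 ± 0.07, limma adjusted p = 0.031), and the cystine transporter gene SLC7A11 was higher after RA (0.45 ± 0.10, adjusted p = 0.044; 0.091 without the third pluripotent array). Among 17 quinone, carbonyl and xenobiotic genes, CYP1B1 (0.63) and CBR3 (0.42) were higher and PIR (−0.51) lower after DOX, with limma adjusted p-values of 0.040, 0.044 and 0.0023. After RA, CBR1 was higher (0.60) and NQO2 (−0.46) and PIR (−0.35) lower (adjusted p = 0.022, 0.013 and 0.040). NQO2 is a relative of NQO1, and its fall stood beside the NQO1 fall after RA.

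Enzymes that supply NADPH and genes of heme and iron gave few calls. ME1, malic enzyme, fell after RA by 0.65 ± 0.11 (limma adjusted p = 0.0069) and IDH1 fell after DOX by 0.29 ± 0.06 (adjusted p = 0.018), out of 5 NADPH genes. Of 9 heme and iron genes 0 were called after either treatment by limma; at an unadjusted p under 0.05, 1 was higher and 1 lower after DOX and 1 higher after RA. HMOX2, the constitutive heme oxygenase, was at 0.26 after DOX (adjusted p = 0.11) beside 0.94 for HMOX1, and was called at 0.34 without the third pluripotent array (limma adjusted p = 0.019), as was TFRC, the transferrin receptor gene, at −0.43 (adjusted p = 0.017). Of 28 measured subunits of the 20S and 19S proteasome, which NRF1 can drive, 0 were called after DOX and 0 after RA by limma, with medians of −0.02 and −0.06. At an unadjusted p under 0.05, 2 were lower after DOX and 6 after RA.

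With RA set against DOX, 10 of the 106 list genes were called higher and 10 lower, where 10.7% and 7.26% of all genes were. Those higher were MAF (1.29), TXNIP (0.97), CBR1 (0.94), NFE2 (0.76), TFRC (0.73), IDH1 (0.48), SLC7A11 (0.44), GCLC (0.31), the glutathione transferase gene GSTA4 (0.28) and the transporter gene ABCC1 (0.27), with limma adjusted p-values up to 0.031. Those lower were SESN1 (−1.33), ME1 (−0.86), SQSTM1 (−0.81), SRXN1 (−0.71), SESN2 (−0.62), HMOX2 (−0.41), the glutathione peroxidase gene GPX1 (−0.40), the proteasome ATPase genes PSMC3 (−0.35) and PSMC4 (−0.33), and TXNRD1 (−0.34), with limma adjusted p-values up to 0.015. Of the 8 thioredoxin and sestrin genes, 4 were thus lower with RA than with DOX and 1 was higher.

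**Figure D3:**
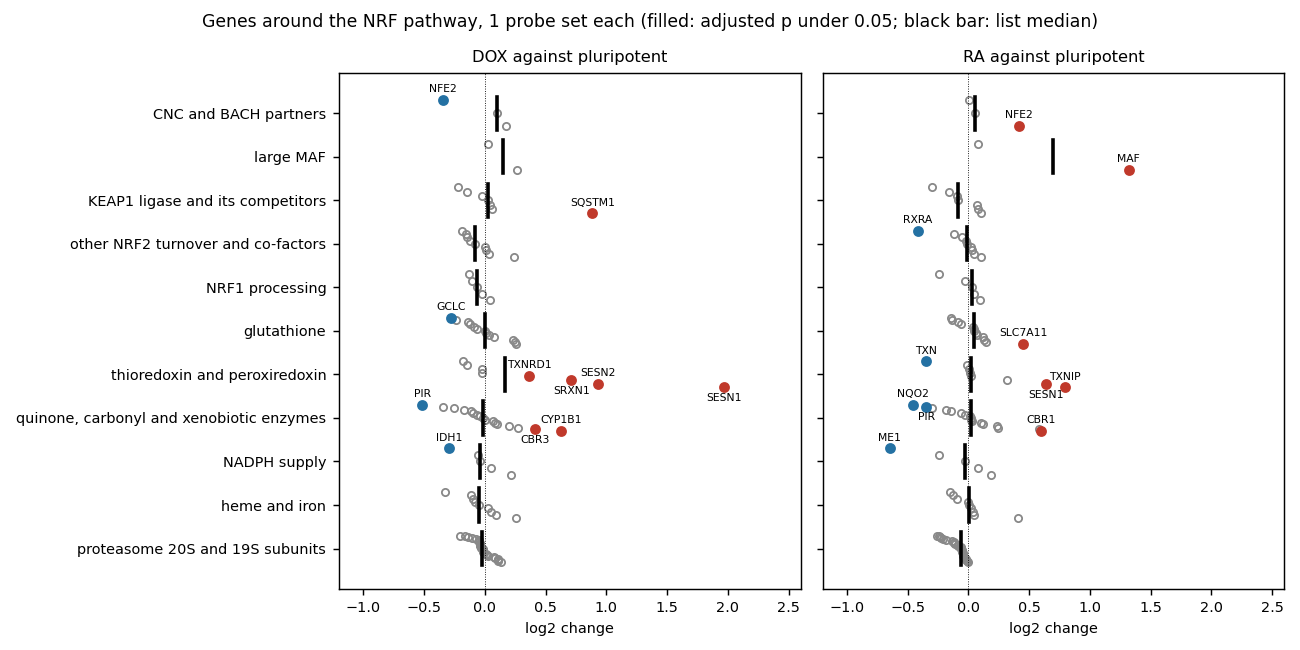
Log2 change of 106 genes in the 11 pathway lists after DOX (left) and RA (right), 1 leading probe set per gene; filled red and blue points are called higher and lower, open points were not called, and black bars mark list medians. SESN1 (1.97), SESN2, SQSTM1 and SRXN1 stand out to the right after DOX and MAF (1.32) after RA, while the 28 proteasome genes lie close to 0 in both panels.

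The genes whose leading probe set was most like that of MAFF over the 9 arrays were EPS8L2 (Pearson r = 0.998), BHLHE40 (0.996), MICALL1 (0.996), DPYSL4 (0.996), PLK2 (0.995) and ATF3 (0.995). They come from 13267 genes whose mean on all 9 arrays, those with DOX included, was above the median level. The arrays form 3 conditions, so these values largely restate that each gene was high with DOX and alike in the other conditions, and no test applies. Their DOX differences ranged from 1.12 for MICALL1 to 4.09 for BHLHE40, beside 4.04 for MAFF. BHLHE40 averaged 4.59 on the pluripotent and 4.66 on the RA arrays, where the median was 4.66. It thus passed that level filter through its DOX arrays, with a mean of 8.68. The kinase gene PLK2 read 6.27, 6.00 and 5.83 on the pluripotent arrays, 9.99, 10.23 and 10.04 on the DOX arrays and 5.95, 5.99 and 5.93 on the RA arrays. The stress-response transcription factor gene ATF3 read 7.24, 7.21 and 7.05, then 9.78, 9.88 and 9.90, then 7.26, 7.32 and 7.17 on the same arrays. The third pluripotent array was the lowest of the 9 for MAFF, EPS8L2, BHLHE40, MICALL1, DPYSL4, PLK2 and ATF3 alike. Among the members, the leading probe sets of NFE2L2 and HMOX1 had r of 0.951 and 0.928 with MAFF, and those of KEAP1 and NFE2L1 had −0.938 and −0.926. The leading probe sets of MAFG, NQO1, GCLM and NFE2L3 had 0.819, 0.604, 0.446 and −0.839, and the other NFE2L2 probe sets 0.517 and 0.068. These member values too largely restate the DOX differences.

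**Figure D4:**
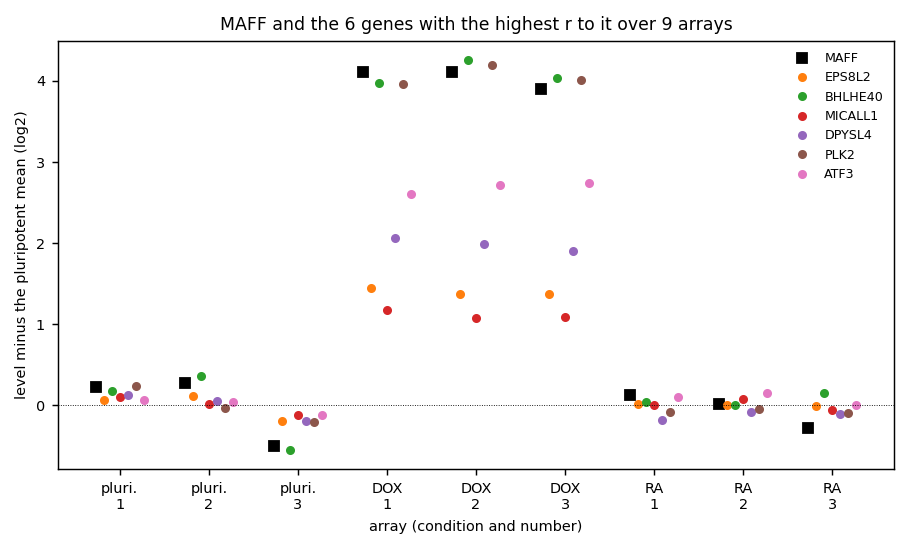
Level of MAFF (black squares) and of the 6 genes most like it (coloured points) on each of the 9 arrays, as log2 difference from the gene's own pluripotent mean; the arrays of a condition have no order. MAFF, BHLHE40 and PLK2 rise most on the 3 DOX arrays, with mean differences of 4.04, 4.09 and 4.06, and MICALL1 least at 1.12, while the RA arrays lie close to the pluripotent ones.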

How the data were processed

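Expression was measured on 9 Affymetrix 1-colour arrays of WA09 cells. The deposited table holds log2 intensities per probe set, which the authors made with RMA and the package affy, per the submitters' processing notes; their versions were not given. The log2 scale was read from the values, which span 2.36 to 14.8 with array medians of 4.62 to 4.68. RMA compresses changes of dim probe sets, and quantile normalization removes shifts shared by most genes.

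The labels gave each array's condition. Control probe sets (62) were left out. Names came from the platform annotation: 41091 probe sets had exactly 1 gene, 1801 several and 11721 none, and the RefSeq table of GRCh38.p14 matched 41037 of those with 1 gene by Entrez identifier. A probe set shared by NFE2L2 and another gene was not used. limma 3.58.1 (lmFit and eBayes, R 4.3.3) fitted 1 linear model of the 3 conditions over the 9 arrays, with no filter on low values. The procedure was run on simulated data with independent noise and planted changes, a check of the code and not of the calls given here. The lead of a gene is its probe set with the highest mean. Named genes are all members, up to 4 called genes of largest change per list and comparison, and the 6 genes most correlated with MAFF; CUL3, HMOX2, TXN, BACH1, BACH2, TXNRD1 and genes whose call changed without the third pluripotent array (an alternative chosen after seeing the data) were named outside this rule, after their values were seen. Members and lists were chosen with earlier results of these data known. Same-numbered arrays of the DOX and pluripotent conditions deviated together (r = 0.168, 0.103 and 0.103 over probe sets). The fit with the replicate number as a block is therefore given where it changed a DOX call or removed an RA against DOX call of a member. For RA the correlations with same-numbered pluripotent arrays were −0.05, 0.28 and 0.21. Those with pluripotent arrays of another number ran from −0.28 to 0.08. As 1 of the 3 same-number values was below 0, pairing for RA was not settled. Same-numbered RA and DOX arrays had 0.06, 0.10 and −0.07. The antioxidant response element core was first searched with a further A after it, which only the printed GCLM and KEAP1 matches have; the shorter core was adopted after that result was seen. Alternatives were another estimate of spread, only the compared conditions, a filter at the median, other normalizations, array weights, the block, other uses of probe sets, and each array left out.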

Additional observations from a re-analysis of the deposited data

How the results depend on the processing

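Counts of called members stayed within 1.5 times of their value under the alternatives run, except as follows. The 2 members lower after DOX became 0 with only the compared conditions, 1 with a further quantile normalization and 1 with the replicate block, and 0 to 1 when an array was left out. The 3 members higher with RA than with DOX became 5 with a trended and robust spread, and were 2 with any array left out; the 8 lower were 6 to 7. With the replicate block, for which pairing of RA arrays was not settled, 4 members were lower after RA (GCLM added, limma adjusted p = 0.043) and 7 lower with RA than with DOX. For the leading probe sets of the 8 tested genes, 324 of 375 alternative values kept direction and call, 32 lost the call, 9 gained it and 10 changed sign. All sign changes were in values near 0 that were not called: GCLM after DOX (−0.0077 with arrays centred, −0.021 to 0.094 with an array left out), NFE2L1 after RA (0.00023 with array weights, −0.047 to 0.013 with an array left out) and HMOX1 after RA (−0.128 to 0.081 with an array left out). Without x_at and s_at probe sets NFE2L3 was at −0.07 after DOX, and MAFG, NFE2L1 and NQO1 had no probe set left. The cause of these shifts was not tested.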
